A study of Homo sapiens with 6 samples.

Results

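Polycomb repressive complex 2 (PRC2) is described here through the transcripts of 10 of its genes, which are the core subunits EZH2, EZH1, EED and SUZ12 and the accessory subunits MTF2, PHF1, PHF19, EPOP, JARID2 and AEBP2. They were taken by gene symbol from the 27672 genes of the deposited expression table, and all 10 were present and passed the filter on low counts. Transcript levels were compared between undifferentiated H9 human embryonic stem cells at day 0, called hESC (D0), and neuromesodermal progenitor-like cells made from them by day 3, called NMP-L (D3), with 3 libraries labelled as biological replicates in each group. Per the labels, the hESCs were kept without feeders, otherwise untreated, in a medium that held Noggin at 10 ng/ml and bFGF at 30 ng/ml. The NMP-L cells were made in N2/B27-containing basal medium with 20 ng/ml bFGF, a fibroblast growth factor, and 3 µM CHIR99021, which activates Wnt signalling, for 3 days. The study's Methods name another maintenance medium and add inhibitors of BMP and TGFβ signalling from day 2 of the differentiation. H9 is a single cell line, so the p-values measure the spread between cultures of that line. The study asks how FGF/ERK signalling and polycomb proteins act at neural genes as NMP-L cells leave this state, and the comparison of day 0 with day 3 shows which PRC2 transcripts those cells carry.

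PRC2 places methyl groups on lysine 27 of histone H3, a mark of silenced developmental genes. EZH2, or its paralogue EZH1, carries the catalytic site, EED binds the methylated histone and stimulates the enzyme, and SUZ12 is the scaffold on which the other subunits assemble. Accessory subunits sort the complex into forms that exclude each other. PRC2.1 holds a Polycomb-like protein (MTF2, PHF1 or PHF19), which binds CpG-rich DNA, and may also hold EPOP, which links the complex to elongin. PRC2.2 holds JARID2, a relative of the JmjC demethylases without their activity, and AEBP2, a zinc finger protein, and reads the ubiquitin that PRC1 places on histone H2A.

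Promoters of 4 of the genes are shown because these genes, the catalytic subunit, the scaffold and the most abundant accessory subunit of each form, carry most of the comparisons. RefSeq promoter windows, from 250 bases before to 50 after the annotated start on GRCh38.p14, were matched for 9 of the 10 genes, all but EPOP. The windows are EZH2 at chr7:148884242-148884541 on the minus strand, SUZ12 at chr17:31936757-31937056, MTF2 at chr1:93079033-93079332 and JARID2 at chr6:15245819-15246118, the last 3 on the plus strand. They are written along the strand of the gene, with matches to E2F site letters in capitals.
EZH2: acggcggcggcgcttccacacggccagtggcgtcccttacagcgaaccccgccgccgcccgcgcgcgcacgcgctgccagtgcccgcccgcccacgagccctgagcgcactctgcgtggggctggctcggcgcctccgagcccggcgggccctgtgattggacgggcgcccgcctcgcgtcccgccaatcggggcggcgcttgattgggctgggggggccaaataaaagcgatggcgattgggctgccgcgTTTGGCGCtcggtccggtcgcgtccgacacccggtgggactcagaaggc
SUZ12: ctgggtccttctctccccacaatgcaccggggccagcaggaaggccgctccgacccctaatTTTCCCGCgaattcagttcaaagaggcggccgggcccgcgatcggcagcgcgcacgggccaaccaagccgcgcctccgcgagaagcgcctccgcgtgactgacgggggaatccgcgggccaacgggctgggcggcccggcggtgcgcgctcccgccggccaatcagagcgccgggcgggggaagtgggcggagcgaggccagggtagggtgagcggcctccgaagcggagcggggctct
MTF2: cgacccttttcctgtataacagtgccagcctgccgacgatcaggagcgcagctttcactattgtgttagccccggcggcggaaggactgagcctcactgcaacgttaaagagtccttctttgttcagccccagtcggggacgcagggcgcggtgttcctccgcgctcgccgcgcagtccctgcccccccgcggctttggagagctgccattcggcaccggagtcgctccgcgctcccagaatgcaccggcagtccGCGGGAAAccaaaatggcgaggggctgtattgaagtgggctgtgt
JARID2: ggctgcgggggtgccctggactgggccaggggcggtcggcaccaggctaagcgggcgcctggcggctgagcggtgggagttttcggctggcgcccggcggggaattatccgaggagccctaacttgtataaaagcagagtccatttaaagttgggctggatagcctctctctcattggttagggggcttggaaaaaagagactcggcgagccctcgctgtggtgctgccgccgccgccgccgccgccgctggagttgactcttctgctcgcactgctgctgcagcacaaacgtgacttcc
All 4 windows were above the median of all promoters in CpG and GC. EZH2 had 46 CpG and 74.7% GC, SUZ12 40 and 73.0%, MTF2 28 and 63.0%, and JARID2 24 and 64.0%. The medians over all 27305 promoters were 14 CpG and 58.3% GC. Among the matched windows not shown, EED had 16 CpG and 52.3% GC, the latter below the median. The letters TTTCCCGC, one form of the site bound by E2F cell cycle factors, were searched on both strands and were found in SUZ12 at bases -189 to -182 and in MTF2, as GCGGGAAA, at bases 6 to 13 counted from the start. A second form, TTTGGCGC, was found in EZH2 at bases 2 to 9. The EED window held neither form. The first form occurs in 1.66% and the second in 0.659% of all promoters, and neither overlapped the other. Of the genes with such letters, EZH2 was higher and MTF2 and SUZ12 lower in NMP-L cells. The POU octamer ATTTGCAT (1.80% of promoters) and the TCF/LEF letters CTTTGAT (2.64%) were in none of the 9 windows. These are letter matches only, and any part of such sites in the changes of these genes was not tested.

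The 10 genes covered a wide range of levels, compared here in TPM, the transcript share per length as RSEM scales it. In hESCs, JARID2 stood at the top with a mean of 392.7 TPM, followed by MTF2 at 70.3 TPM. The ranges of JARID2, MTF2 and the next genes did not overlap. PHF19 (33.7 TPM), EZH2 (33.6), PHF1 (32.4), SUZ12 (31.8) and AEBP2 (27.8) followed, and the 3 libraries of each gene overlapped those of the next. EED (18.7 TPM), EZH1 (9.66) and EPOP (3.17) closed the order, each clear of its neighbours. In NMP-L cells JARID2 was still first, at 107.6 TPM, but EZH2 (53.8 TPM) was now second with a range that overlapped that of MTF2 (46.6). PHF1, EED, SUZ12, PHF19 and AEBP2 lay between 25.1 and 26.8 TPM and overlapped in turn, and EZH1 (9.87) and EPOP (7.35) were last and overlapped as well.

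**Figure D1:**
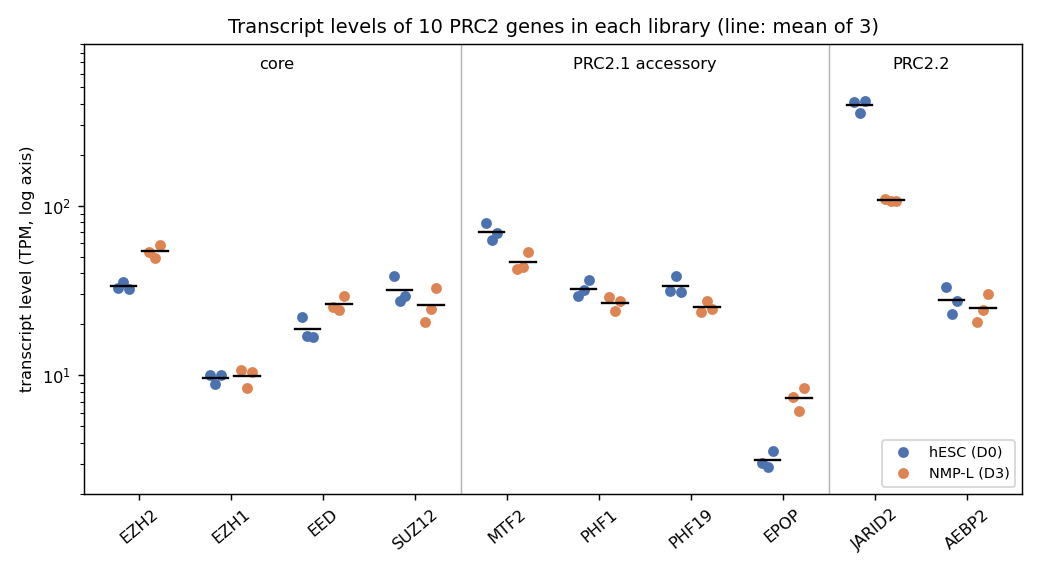
Transcript level of each of the 10 PRC2 genes in TPM on a log axis, with 1 point per library (blue, hESC (D0); orange, NMP-L (D3)) and a line at the mean of 3. JARID2 fell from between 350.9 and 416.7 TPM to between 106.5 and 109.3 TPM, EZH2 and EPOP rose, and the points of EZH1, SUZ12 and AEBP2 overlapped between groups on this scale.

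To find which subunits changed, counts were scaled to CPM (counts scaled to a common library size) by TMM and tested with edgeR's quasi-likelihood test, with p-values adjusted over all 15517 genes tested and 0.05 as the threshold. Of the 10 genes 8 passed, against a background of 55.8% of all genes. EZH2, EED and EPOP rose (3 genes; 29.1% of all genes rose), and SUZ12, MTF2, PHF1, PHF19 and JARID2 fell (5 genes; 26.7% of all genes fell). With most of the transcriptome past the threshold, the number of members called says little by itself, and the size of the change separates the genes better. A change of at least 2-fold, which 18.6% of all genes showed, was reached by JARID2 and EPOP. The median log2 fold change was -0.31 over the 10 genes and 0.028 over all genes tested. These are bulk samples, in which fewer cells expressing a gene and less RNA per cell cannot be told apart.

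**Figure D2:**
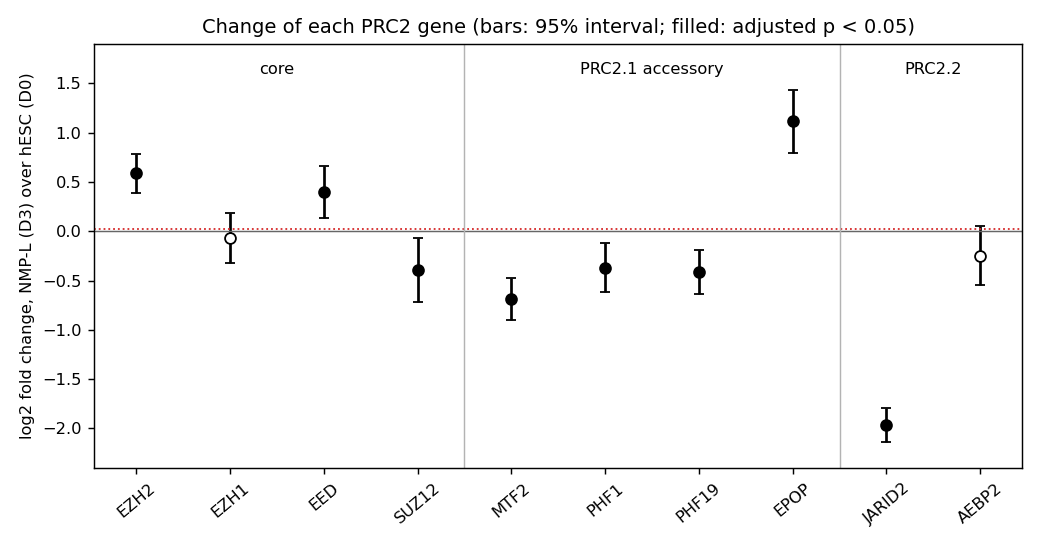
Log2 fold change of each PRC2 gene, NMP-L (D3) over hESC (D0), from edgeR, with 95% intervals; filled points passed an adjusted p of 0.05 and the dotted line is the median of all genes tested (0.028). JARID2 (-1.96) and EPOP (1.11) lie farthest from that line, and the intervals of EZH1 and AEBP2 include 0.

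Among the core subunits 3 of 4 passed the threshold, as did 55.8% of all genes tested, and these 3 did not move one way. EZH2 (GRCh37 chr7:148504349-148581413, minus strand) was at 41.6, 46.8 and 42.0 CPM in hESCs and at 66.1, 61.4 and 68.3 CPM in NMP-L cells. All NMP-L libraries were above all hESC libraries. The log2 fold change was 0.59 (SE 0.090, edgeR adjusted p = 0.00019), a 1.502-fold rise with a 95% interval from 1.31 to 1.72. EZH1 (chr17:40852293-40897067, minus strand), the paralogue with weaker catalytic activity that is known from non-dividing cells, was at 22.8, 20.99 and 22.9 CPM and at 23.5, 18.4 and 21.7 CPM. These groups overlapped, and the log2 difference of -0.066 had a 95% interval from -0.32 to 0.19 (edgeR adjusted p = 0.65). The ratio of EZH1 to EZH2, taken within each library from TPM, was 0.308, 0.250 and 0.308 in hESCs and 0.201, 0.169 and 0.180 in NMP-L cells. The groups did not overlap, and the share of EZH2 in the summed TPM of the catalytic pair was 77.6% ± 2.07 (SD, n = 3) in hESCs and 84.5% ± 1.17 in NMP-L cells.

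EED (chr11:85912254-85989855, plus strand) was at 25.9, 20.6 and 20.0 CPM in hESCs and at 28.4, 27.8 and 31.4 CPM in NMP-L cells. The groups did not overlap, but hESC replicate 1 came close to the NMP-L range. The rise was 1.32-fold (log2 0.40, SE 0.12, edgeR adjusted p = 0.014). It no longer passed without hESC replicate 2 (adjusted p = 0.052) or without hESC replicate 3 (adjusted p = 0.077), nor when each library was corrected for the GC content and length of transcripts, which brought the log2 fold change to 0.16 (adjusted p = 0.15). A gene annotated on the opposite strand overlaps an EED exon, and whether reads were counted by strand is not given in the sources used here.

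SUZ12 (chr17:30264026-30328057, plus strand) was at 83.8, 61.9 and 64.6 CPM in hESCs and at 43.4, 52.1 and 64.7 CPM in NMP-L cells. NMP-L replicate 3 lay inside the hESC range, so the groups overlapped. The log2 fold change of -0.39 (SE 0.15) was just past the threshold (edgeR adjusted p = 0.043), and an exact two-sided permutation test of this gene alone gave p = 0.3, where 0.1 is the smallest value that 3 against 3 libraries allow. The call was lost when any 1 of hESC replicates 1 and 3 or NMP-L replicates 1 and 2 was left out (adjusted p between 0.068 and 0.15), with library size in place of TMM (0.096) and with limma on TPM. When corrected for GC content and length the fall was larger (log2 -0.59, SE 0.077, edgeR adjusted p = 3.3e-05), as it was relative to HPRT1 (log2 -0.69, adjusted p = 0.00096), whereas relative to GAPDH the value was 0.18 and did not pass.

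The counts of SUZ12 are fractional, as RSEM divides reads that fit more than 1 place. The table also lists SUZ12P1, a pseudogene copy of SUZ12, which rose from 12.1, 14.2 and 11.6 CPM to 18.5, 20.2 and 22.2 CPM (log2 fold change 0.68, SE 0.12, edgeR adjusted p = 0.00059). With both genes added together the values were 95.9, 76.1 and 76.2 CPM in hESCs and 61.8, 72.3 and 86.9 CPM in NMP-L cells. These sums overlapped between the groups, with a log2 difference of -0.17 (exact two-sided permutation p = 0.4). How the shared reads were divided between the copies was not tested, and the level of SUZ12 is uncertain to that extent.

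Within libraries the proportions of the core transcripts to each other also differed. The ratio of EZH2 to SUZ12 TPM was 0.848, 1.299 and 1.11 in hESCs and 2.59, 2.01 and 1.80 in NMP-L cells, and that of EED to SUZ12 was 0.573, 0.622 and 0.574 against 1.23, 0.990 and 0.900. Neither pair of groups overlapped. The ratio of EZH2 to EED overlapped, with means of 1.83 ± 0.315 and 2.04 ± 0.0573 (SD, n = 3). The ratios to SUZ12 carry the uncertainty of its shared reads.

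All 4 accessory genes of PRC2.1 passed the threshold, as did 55.8% of all genes tested. The 3 Polycomb-like genes moved downwards and EPOP upwards. MTF2 (chr1:93544792-93604636, plus strand), the main Polycomb-like protein of pluripotent cells, was at 156.2, 128.5 and 138.8 CPM in hESCs and at 82.1, 84.2 and 96.7 CPM in NMP-L cells. The groups stood well apart, and MTF2 was 1.61-fold lower in NMP-L cells (log2 fold change -0.69, SE 0.098, edgeR adjusted p = 0.00011). PHF19 (chr9:123617929-123657174, minus strand), the paralogue also called PCL3, was at 37.4, 43.9 and 36.5 CPM and at 30.3, 30.3 and 27.8 CPM. It too did not overlap, and its log2 fold change was -0.42 (SE 0.10, edgeR adjusted p = 0.0048). An effective transcript length was worked out as counts over TPM, relative to the library's median over well-counted genes. For PHF19 it varied 1.21-fold over the 6 libraries, more than for the other 9 genes, where it varied 1.02-fold at most.

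PHF1 (chr6:33378176-33384230, plus strand), or PCL1, was at 31.7, 35.8 and 39.6 CPM in hESCs and at 30.4, 25.4 and 27.04 CPM in NMP-L cells. The lowest hESC library was just above the highest NMP-L library. The log2 fold change was -0.37 (SE 0.11, edgeR adjusted p = 0.015). The call was lost without hESC replicate 3 (adjusted p = 0.077), without NMP-L replicate 2 (0.075), when corrected for GC content and length (log2 -0.19, adjusted p = 0.061) and with limma on TPM. Exons of CUTA overlap PHF1 on the other strand, and CUTA itself had a log2 fold change of 0.24 that did not pass (edgeR adjusted p = 0.10).

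EPOP (chr17:36827956-36831210, minus strand) was the least abundant of the 10 genes and rose most. It was at 4.70, 4.63 and 5.64 CPM in hESCs and at 11.2, 9.25 and 12.0 CPM in NMP-L cells, and its lowest library held 88 counts. The groups did not overlap, and the rise was 2.17-fold with a 95% interval from 1.73 to 2.70 (log2 1.11, SE 0.15, edgeR adjusted p = 5.8e-05). It passed in all 18 alternative analyses, with log2 fold changes from 0.80 to 1.68. Since the Polycomb-like genes fell, the ratio of EPOP to their summed TPM rose further, from 0.0218, 0.0217 and 0.0263 to 0.0780, 0.0647 and 0.0800, a 3.19-fold difference of geometric means. Even so EPOP stayed at a small fraction of the Polycomb-like transcripts.

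Among the Polycomb-like genes themselves the shares of the groups overlapped. MTF2 made up 51.4% ± 4.79 (SD, n = 3) of their summed TPM in hESCs and 47.1% ± 3.15 in NMP-L cells. The share of PHF1 was 23.8% ± 2.79 and 27.2% ± 2.76, and that of PHF19 24.8% ± 3.73 and 25.7% ± 2.74. In these TPM shares no shift between MTF2, PHF1 and PHF19 could be seen beyond the spread of the libraries. When corrected for GC content and length, MTF2 fell by more (log2 -0.89, SE 0.052) than PHF19 (-0.32, SE 0.075) and PHF1 (-0.19, SE 0.081). The difference between these genes was not tested.

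The accessory genes of PRC2.2 parted from each other. JARID2 (chr6:15246300-15522273, plus strand) had 22567, 20644 and 23594 counts in hESCs and 6863, 6352 and 6849 in NMP-L cells. Scaled, these are 1205, 1062 and 1232 CPM against 308.2, 302.9 and 286.3 CPM. The lowest hESC library was far above the highest NMP-L library, and JARID2 was 3.90-fold lower in NMP-L cells (log2 fold change -1.96, SE 0.079, 95% interval -2.14 to -1.79, edgeR adjusted p = 5.1e-09). Of the 15517 genes tested, 441 had a lower fold change. In TPM its median rank among all genes of the table went from 325 to 1482. The fall passed in all 18 alternatives, with log2 values from -2.26 to -1.41, and JARID2 at 107.6 ± 1.51 TPM (SD, n = 3) remained the most abundant of the 10 transcripts in NMP-L cells.

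AEBP2 (chr12:19556979-19873735, plus strand) was at 86.6, 62.1 and 71.8 CPM in hESCs and at 52.9, 60.5 and 72.3 CPM in NMP-L cells. The groups overlapped, and the log2 difference of -0.25 had a 95% interval from -0.55 to 0.052 (edgeR adjusted p = 0.14), which leaves room for a fall of up to that size. It passed without NMP-L replicate 3 (log2 -0.37, adjusted p = 0.048), relative to HPRT1 (log2 -0.55, adjusted p = 0.0097) and when corrected for GC content and length (log2 -0.43, adjusted p = 9.6e-05). The ratio of JARID2 to AEBP2 TPM was 12.4, 15.3 and 15.2 in hESCs and 5.28, 4.395 and 3.53 in NMP-L cells. These ratios did not overlap, so within each library the PRC2.2 pair was less dominated by JARID2 at day 3.

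Some of the spread within groups was shared between genes. EED, SUZ12, MTF2 and AEBP2 were all highest in replicate 1 among the hESC libraries and all highest in replicate 3 among the NMP-L libraries. On the log2 CPM scale SUZ12 lay 0.27 above its group mean in hESC replicate 1 and 0.30 above it in NMP-L replicate 3. AEBP2 lay 0.25 and 0.24 above. JARID2 was highest in neither of these libraries, and EZH2 was highest in NMP-L replicate 3 but not in hESC replicate 1. Correcting the libraries for transcript GC content and length lowered the SE of the log2 fold change from 0.15 to 0.077 for SUZ12 and from 0.14 to 0.065 for AEBP2, and both genes passed with it.

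To compare PRC2.1 with PRC2.2, accessory transcripts were summed within each library in TPM. The PRC2.2 sum (JARID2 and AEBP2) was 443.6, 373.8 and 444.0 TPM in hESCs and 130.1, 130.7 and 137.4 TPM in NMP-L cells. The PRC2.1 sum (MTF2, PHF1, PHF19 and EPOP) was 142.8, 135.7 and 140.3 TPM against 102.8, 101.2 and 114.1 TPM. Both sums were lower in every NMP-L library than in every hESC library, the PRC2.2 sum by far more. The ratio of PRC2.1 to PRC2.2 was therefore 0.322, 0.363 and 0.316 in hESCs and 0.790, 0.774 and 0.830 in NMP-L cells, a 2.40-fold difference of geometric means (log2 1.26). No p-value is given for this ratio, which is a score over chosen genes.

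The difference in that ratio rested on JARID2. With AEBP2 alone standing for PRC2.2, the ratio was 4.30, 5.93 and 5.13 in hESCs and 4.96, 4.18 and 3.76 in NMP-L cells. These groups overlapped, and the log2 difference turned to -0.25. Without EPOP on the PRC2.1 side the log2 difference was 1.19, little changed. As sums, transcripts of PRC2.2 were still more abundant than those of PRC2.1 in every library of both groups. That order too rested on JARID2, as the PRC2.1 sum was 3.76 to 5.93 times the level of AEBP2.

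As shares of all accessory TPM, JARID2 held 70.1% ± 1.22 (SD, n = 3) in hESCs and 45.2% ± 2.29 in NMP-L cells. The other 5 genes each took a larger share at day 3, also those whose own level fell. As shares are parts of the same whole, these 5 together had to gain what JARID2 lost. MTF2 went from 12.5% to 19.5%, PHF1 from 5.81% to 11.2% and PHF19 from 6.09% to 10.6%. AEBP2 went from 4.95% to 10.5% and EPOP from 0.566% to 3.07%. The core sum used here holds EZH2, EZH1, EED and SUZ12 but not RBBP4 or RBBP7. RBBP7 alone was above that sum, at 317.3 TPM in hESCs and 446.3 TPM in NMP-L cells. The ratio of summed accessory TPM to this partial core sum was 5.67, 5.72 and 6.59 in hESCs and 2.12, 2.17 and 1.92 in NMP-L cells. The core sum itself moved from 93.7 ± 8.39 to 115.9 ± 13.1 TPM (SD, n = 3). JARID2 against the catalytic pair EZH1 and EZH2 gave 9.601, 7.88 and 9.81 in hESCs and 1.71, 1.84 and 1.55 in NMP-L cells, with no overlap. These are proportions of transcripts, and no protein was measured in these libraries.

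**Figure D3:**
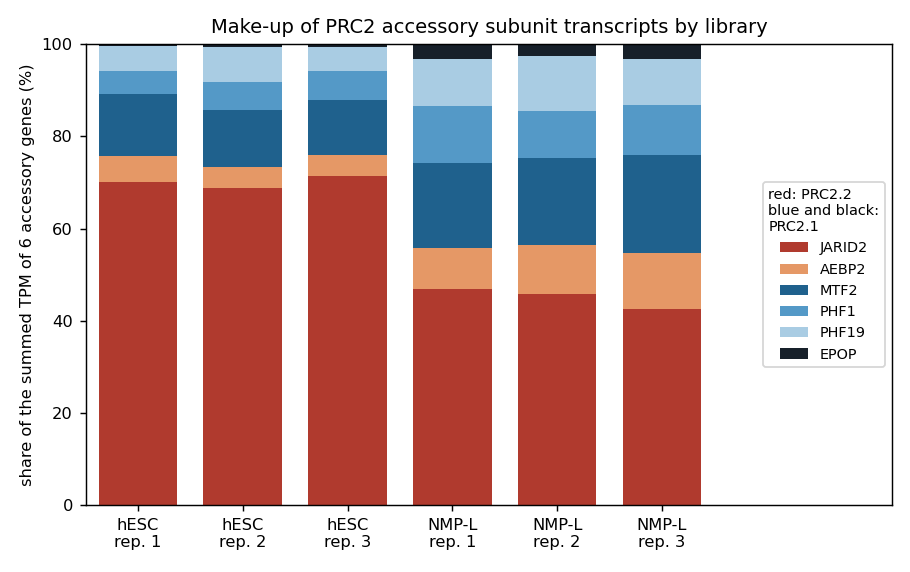
Share of each accessory subunit gene in the summed TPM of all 6, in percent, with 1 bar per library. JARID2 holds 68.9% to 71.3% of each hESC bar and 42.6% to 47.0% of each NMP-L bar, and all 5 other genes have a larger share in every NMP-L library.

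Other genes of the complex moved less than JARID2. Of 8 such genes 7 were tested, 2 rose and 0 fell, with a median log2 fold change of -0.017. Over all genes tested 29.1% rose and 26.7% fell, so the number that rose is near the background. RBBP7, a histone-binding WD40 subunit of the core, rose from 317.3 to 446.3 TPM (log2 fold change 0.39, SE 0.068, edgeR adjusted p = 0.00045). Its paralogue RBBP4 was at 90.9 and 96.02 TPM, with a log2 difference of -0.017 and a 95% interval from -0.17 to 0.13. LCOR, whose locus also encodes the PRC2.1 partner PALI1, rose close to the threshold (log2 0.43, SE 0.17, edgeR adjusted p = 0.047). The related LCORL (log2 0.13), the elongins ELOB (-0.22) and ELOC (-0.20), which EPOP binds, and the deubiquitinase USP7 (-0.12) did not pass. CXorf67, which encodes the PRC2 inhibitor EZHIP, had between 0 and 5 counts in each library and was not tested.

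Of the demethylases that remove the PRC2 mark, KDM6B rose from 5.21 to 9.42 TPM (log2 0.76, SE 0.11, edgeR adjusted p = 0.00014), and KDM6A had a log2 difference of -0.15 that did not pass (adjusted p = 0.19). EZH2 and EED are known targets of E2F factors in dividing cells, and 10 E2F and proliferation genes were looked at beside them. Of these 1 rose, CCNA2 (log2 0.27, SE 0.10, edgeR adjusted p = 0.045), and 5 fell, E2F1 by most (log2 -0.67, SE 0.10, edgeR adjusted p = 0.00017), with a median of -0.18. Over all genes tested 29.1% rose and 26.7% fell. Any part of E2F factors or proliferation in the values of EZH2 and EED was not tested.

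Library totals lay between 19454543 and 23036426 expected counts. Of 6 pluripotency markers 5 fell and 0 rose, with summed levels of 3280 to 3381 TPM in hESCs and 1814 to 1877 TPM in NMP-L cells. Of 8 NMP markers 7 were tested and 6 rose, from a sum of 216.8 to 241.1 TPM to one of 344.9 to 446.8 TPM, most of which is SOX2. FGF8, the marker not tested, had 4, 11 and 7 counts in hESC libraries and 3, 2 and 1 in NMP-L libraries. T and CDX2, at 0 to 2 counts in each hESC library, had 293 to 629 and 326 to 607 counts in NMP-L libraries. Markers of other cell types gave sums of at most 29.2 TPM. Of 6 neural markers 3 were tested, 1 rose (SOX1) and 1 fell, with sums of 9.01 to 10.47 TPM in hESCs and 10.98 to 13.1 TPM in NMP-L cells. Of 5 paraxial mesoderm markers 2 were tested and both fell (13.8 to 17.5 against 5.37 to 7.29 TPM), as did both tested of 3 neural crest markers (24.6 to 29.2 against 2.87 to 3.62 TPM). Of 6 endoderm markers 2 were tested and 1 rose, FOXA2, with sums of 2.63 to 4.23 and 14.02 to 25.96 TPM. FOXA2 made up most of the NMP-L sums. CXCR4 did not pass (log2 fold change 0.48, edgeR adjusted p = 0.17). GATA4, GATA6 and AFP had at most 15 counts in any library and were not tested. FOXA2 had a mean of 17.2 TPM in NMP-L cells, near the means of T (19.6 TPM) and CDX2 (20.3 TPM). NEUROG2, MEOX1, PAX3 and SOX17 had 3 counts or fewer in every library. Any part of other cell types in the PRC2 values was not tested.

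The direction of the smaller changes depended on the reference. GAPDH, a common reference gene, fell by 0.55 on the log2 scale (edgeR adjusted p = 0.00014), and HPRT1 had a log2 fold change of 0.28 (adjusted p = 0.069). Counts relative to GAPDH moved the median gene up to 0.59, and 5 of the 10 PRC2 genes then passed, where 73.8% of all genes did. In that analysis EZH2, EZH1, EED and EPOP were higher and JARID2 was lower, while SUZ12, PHF1, PHF19 and AEBP2 had positive values that did not pass. Counts relative to HPRT1 moved the median gene to -0.27, and 7 PRC2 genes passed, where 45.7% of all genes did. EZH2 (0.28) and EED (0.11) no longer passed, and AEBP2 (-0.55) did. JARID2 and EPOP kept their direction and passed under both references. MTF2 passed relative to HPRT1 (log2 -0.99), but relative to GAPDH its value shrank to -0.12 and its call was lost (edgeR adjusted p = 0.50). The ratios within libraries given above do not depend on the reference.

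**Figure D4:**
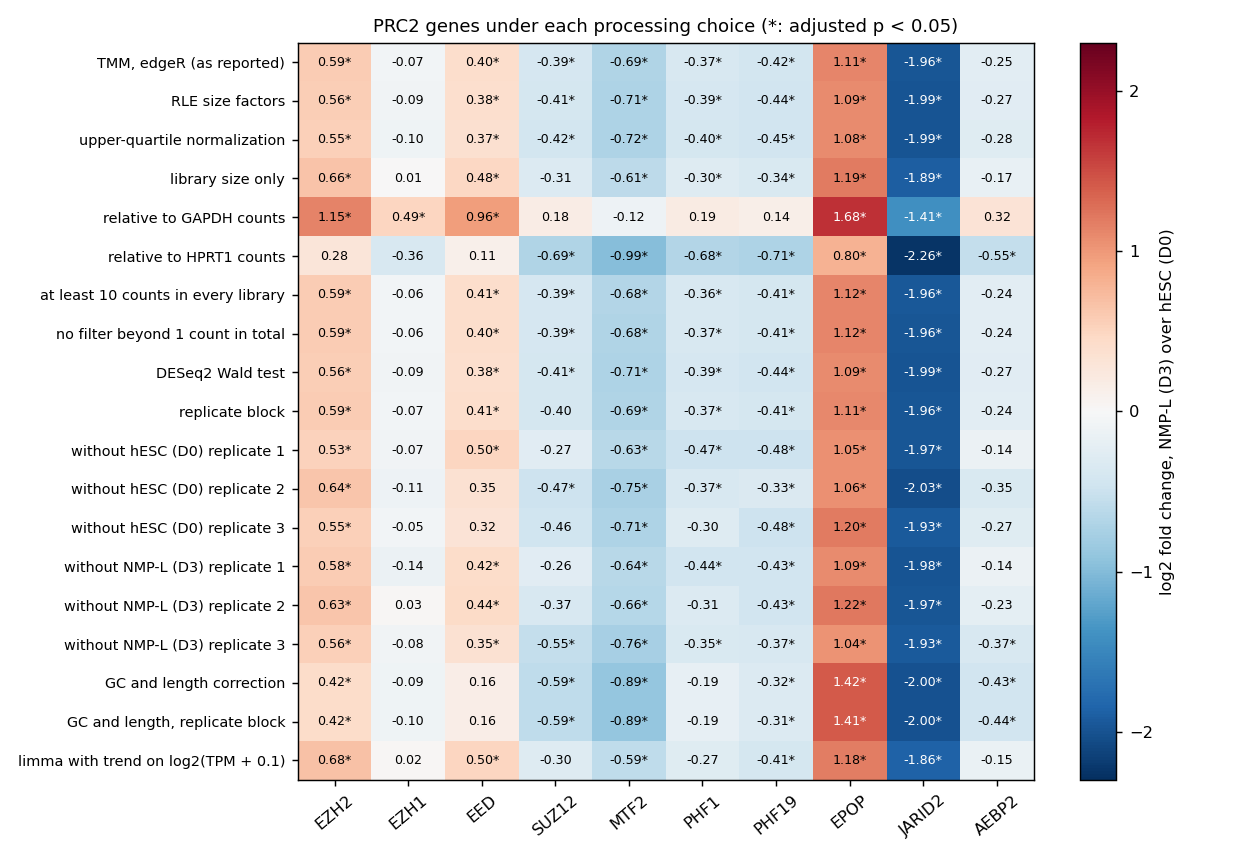
Log2 fold change, NMP-L (D3) over hESC (D0), of each PRC2 gene (columns) under the reported analysis (top row) and 18 alternatives (rows below); red is higher and blue lower in NMP-L cells, and an asterisk marks an adjusted p under 0.05. EPOP and JARID2 carry an asterisk and 1 colour in every row, whereas SUZ12, PHF1, PHF19 and AEBP2 turn from blue to red relative to GAPDH.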

How the data were processed

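RNA-seq of polyadenylated RNA (single-end reads of 76 bp) gave 3 hESC (D0) and 3 NMP-L (D3) libraries, grouped by the labels. Expected counts per gene from RSEM were deposited by the authors with no normalization across samples. TPM values, also deposited, are scaled by effective transcript length and to the same total in each library. The submitters' processing notes name cutadapt 1.9.1, STAR 2.5.2a, RSEM 1.3.0, DESeq2 1.12.3 and build hg19, and the annotation and strand setting are not given in the sources used here.

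After rounding to whole numbers, expected counts were tested in edgeR 4.0.16 under R 4.3.3 (filterByExpr with a minimum count of 10, TMM, glmQLFit and glmQLFTest, Benjamini-Hochberg adjustment over 15517 genes). The standard error is the log2 fold change divided by the square root of F. Single genes were also tested by exact permutation on log2 CPM with a pseudocount of 0.1. Levels of different genes and ratios used TPM, with no test. The procedure was also run on simulated data in which few genes changed, as many upwards as downwards. That run does not test the scaling for these data, where 55.8% of genes passed. All 10 members are named, with every gene of the other PRC2 and demethylase lists and the largest rise and fall of the proliferation list. CUTA and SUZ12P1 were added after their values were seen, as neighbour and copy of a member. Members and lists were chosen with earlier results of these data known. A detection floor of 3 counts was used.

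Alternatives were other scalings (RLE, upper quartile, library size, GAPDH, HPRT1), other filters, DESeq2 1.42.0, a replicate block, each library left out, and lowess correction for GC content and transcript length (24884 genes with both). After the data were seen, limma 3.58.1 on log2(TPM + 0.1) and a ratio with AEBP2 alone were added. Loci come from GENCODE release 44 on GRCh37 by symbol. Tables and plots were made in Python 3.11.15 with pandas 2.3.3 and matplotlib 3.10.9. Counting depth behind each gene is given in its counts, and the number of libraries limits the precision.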

Additional observations from a re-analysis of the deposited data

How the results depend on the processing

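The counts of PRC2 genes past the threshold rested on those with small changes. The 8 genes became 5 relative to GAPDH, where 1 gene was lower and 11455 of all genes passed in place of 8653. Relative to HPRT1, where 7087 of all genes passed, 1 PRC2 gene was higher in place of 3 and 6 were lower in place of 5. With limma on TPM, chosen after seeing the data, 3 genes were lower in place of 5. Leaving out 1 library at a time gave 5 to 9 genes past the threshold (5 without hESC replicate 3) and 3 to 6 lower (3 without hESC replicate 3 or NMP-L replicate 2). The value of EZH1 changed sign to 0.010 with library size only, to 0.49 relative to GAPDH and to 0.025 with limma on TPM, and lay between -0.14 and 0.030 with 1 library left out. Relative to GAPDH, which raised the median gene to 0.59 and the share of calls that were higher from 52.1% to 87.5%, SUZ12 (0.18), PHF1 (0.19), PHF19 (0.14) and AEBP2 (0.32) changed sign. The share of higher calls was 25.3% relative to HPRT1. The log2 difference of the PRC2.1 to PRC2.2 ratio was 0.94 as a mean of log2(TPM + 1) over subunits and -0.25 with AEBP2 alone, and 1.22 to 1.32 with 1 library left out. The causes were not tested. With the replicate block 7 PRC2 genes passed and 7560 of all genes. No source states a pairing, and same-numbered libraries did not deviate together (correlations of -0.46, -0.036 and -0.17). The block ended the call of SUZ12 (adjusted p = 0.060) and of no other PRC2 gene.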
